A study of Mus musculus with 16 samples.

Results

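Acetylation of histone H3 at lysine 27 (H3K27ac) was found at 731 places of the genome in every Bcl11b knockout (KO) library and in no wild-type (WT) library, early and late in Th2 culture. These regions are described here. They were obtained by merging the H3K27ac islands of 8 libraries wherever they overlapped or touched, which gave 35909 regions, and by keeping those with an island in both early KO and both late KO lists and in none of the 4 WT lists. The 731 regions make up 2.04% of all regions. They were thus chosen by their H3K27ac in KO and WT cells, which is given as a description with no test.

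The cells were CD4 T cells of Bcl11b fl/fl-CreERT2 mice on a C57BL/6 background, cultured under Th2 conditions, and every group carried the floxed alleles and the Cre. Early cells had 4 days of culture, with 4-hydroxytamoxifen (4-OHT) for KO and without it for WT. For late cells the 4 days under Th2 conditions were followed by 1 day without Th2 conditions, in IL-2 medium, and by a second Th2 culture, again of 4 days, and 4-OHT was given to KO cells in the second culture only. H3K27ac ChIP-seq and DNase-seq were each done on 2 libraries per stage and genotype, 16 in all. Loss of Bcl11b and exposure to 4-OHT cannot be told apart, because no WT culture received 4-OHT. The labels name no promoter for the Cre, leave unsaid whether the 2 libraries of a group are from different mice or cultures, and call the cells naive while giving a CD44-high sort. P-values thus measure only the spread between these libraries, which may be technical. Marker genes of the cell type were not checked, and genes near the regions are not named, because no annotation of the build mm9 was used here. In bulk samples, fewer cells with a mark and less of it per cell cannot be told apart.

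H3K27ac is placed by the acetyltransferases p300 and CBP and marks active promoters and enhancers. DNase I cuts where nucleosomes are displaced, so DNase-seq maps open chromatin, which transcription factors bind. Bcl11b is a zinc finger factor of the T lineage that can recruit deacetylase complexes such as NuRD, and it is known for restraining natural killer and other innate programmes in T cells. GATA3, which the title of the series names as its partner, is the factor that defines Th2 cells.

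The KO-only regions were mostly narrow and weak among KO islands. Their median width was 2600 bp (quartiles 2000 and 3600 bp, range 800 to 15400 bp), against 4600 bp for the 18384 regions with islands in all 8 lists. Islands covered a median of 2.0 kb of each member in early KO replicate 1, 2.2 kb in early KO replicate 2, 2.2 kb in late KO replicate 1 and 1.8 kb in late KO replicate 2. The 4 KO libraries thus held similar amounts. Averaged over the KO lists, coverage ran from 0.5 to 8.45 kb, with 13 members over 5 kb and 16 under 1 kb. Islands were ranked by the authors' score within each list, from 0 (weakest) to 100. A region took the percentile of its strongest island in each KO list, averaged over these lists. The median member stood at percentile 24.2 (quartiles 16.4 and 34.5), and the median region shared by all 8 lists stood at 66.5. Wider regions can hold several islands of a list, which can raise their percentile. A mean percentile above 50 was reached by 40 members.

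**Figure D1:**
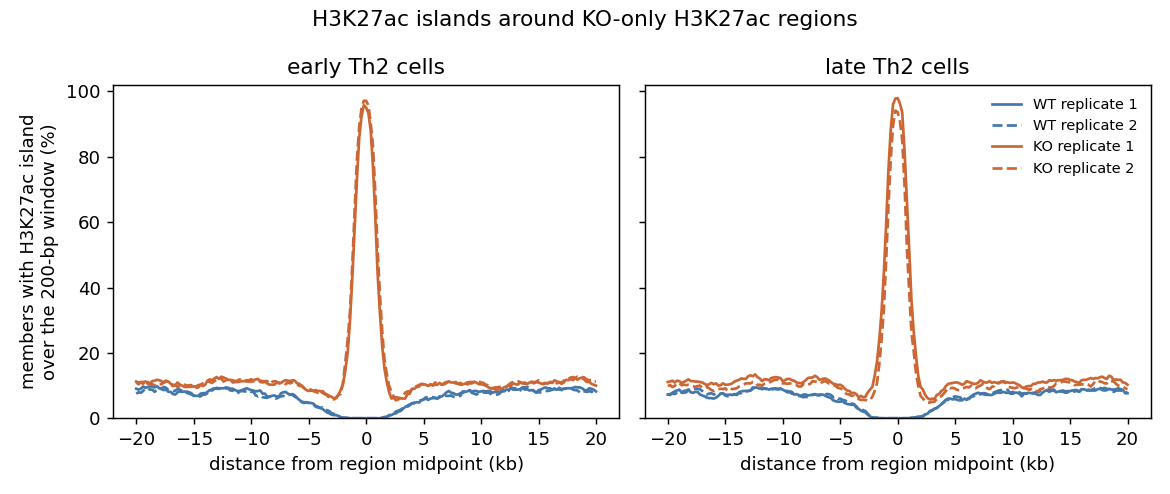
Share of the 731 members (%) with an H3K27ac island over each 200-bp window, by distance from the region's midpoint in kb, for early (left) and late (right) libraries, with WT in blue, KO in orange and a line per replicate. KO libraries reach 93.7% to 98.0% at the midpoint and WT libraries are at 0 there by the selection; from 10 to 20 kb away the means are 8.1% to 8.66% in WT and 10.01% to 11.4% in KO.

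The members that ranked highest in the KO lists lay apart from one another. On chromosome 13 at 113328601 to 113335400, KO islands covered 6.2 and 5.6 kb in early cells and 6.0 and 5.0 kb in late cells, at a mean percentile of 86.5. All 4 KO libraries were high there. On chromosome 19 at 25108201 to 25115800 they covered 6.0 and 5.4 kb early and 7.4 and 7.4 kb late, at percentile 82.1. A further region of chromosome 13, at 53035601 to 53041800, had 5.0 and 3.6 kb early and 5.6 and 5.8 kb late (percentile 74.1). The other members of the first 10 stood at percentiles 63.3 to 71.5. By covered length the first member was on chromosome 4 at 140387001 to 140402400, with 3.2 and 3.2 kb in early KO but 15.4 and 12 kb in late KO. It was followed by chromosome 7 at 151966201 to 151976800, with 6.6 and 10.2 kb early and 8.6 and 7.0 kb late.

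Regions just inside and just outside the rule were close in size. At the weak end, the member on chromosome 7 at 133373401 to 133375000 was covered over 1.0 and 1.0 kb early and 1.6 and 1.6 kb late, and one of its islands was among the weakest of its list (percentile 0.012). The members on chromosome 4 at 107106601 to 107108200 and on chromosome 2 at 180413201 to 180415200 also had a KO island near the foot of its list (percentiles 0.034 and 0.067). Outside the rule, 478 regions had islands in all 4 KO lists and in exactly 1 WT list, with a median of 1.95 kb in KO and 1.4 kb in that WT list. Late WT replicate 2 was that list in 313 of them. Another 478 regions lacked a WT island but missed 1 KO list, which was early KO replicate 2 in 248. The rule kept 1045 regions without late WT replicate 2 and 1004 without early KO replicate 2.

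Members were spread over all autosomes and chromosome X. They formed from 1.4% of the H3K27ac regions of chromosome 6 (28 of 2000) to 2.92% of those of chromosome 17 (46 of 1575), and chromosome Y held none of its 13 regions. Most stood clear of shared acetylation. The nearest region with islands in all 8 lists lay at a median distance of 20.4 kb, within 5 kb for 143 members (19.6%) and beyond 100 kb for 113. For regions found in early KO lists only the median distance was 26.6 kb, and for those in late KO lists only it was 22.6 kb. An island of any WT list lay within 5 kb of 203 members (27.8%).

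Some members were neighbours. With gaps under 50 kb, 117 members (16.01%) fell into 55 runs, of which 51 were pairs. The longest run held 5 members over 106.8 kb of chromosome 9, from 65982401 to 66089200, with no shared region between them. Its members together held 12.4 and 14.2 kb of H3K27ac in the early KO libraries and 12.6 and 10.6 kb in the late ones. DNase islands in the run covered 6.2 and 6.8 kb in early KO against 1.6 and 2.6 kb in early WT. In late cells they covered 1.4 and 3.0 kb in KO against 0 and 1.2 kb in WT. Early KO and early WT libraries did not overlap, nor did late KO and late WT libraries. A run of 4 members on chromosome 5, from 136939601 to 137008600, held 10.8 and 10.6 kb of H3K27ac in the early KO libraries and 9.8 and 7.4 kb in the late ones. Its DNase islands covered 1.2 and 4.4 kb in early KO against 0 and 1.0 kb in early WT, and 4.0 and 1.6 kb in late KO against 0 and 0.8 kb in late WT. The third run, 3 members on chromosome 11 from 53841001 to 53902600, went another way: DNase islands covered 0 and 1.6 kb in early KO against 2.2 and 2.4 kb in early WT, and nothing in any late library. H3K27ac there was 5.2 and 5.6 kb in early KO and 4.4 kb in each late KO library.

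DNase-seq was not used to choose the regions and shows whether their chromatin was open. The DNase lists differed in length, from 17397 islands in late KO replicate 2 to 39736 in early WT replicate 2, and both late KO lists were the shortest. Absence of an island means no more than that it is not in the list. A DNase island was present in 34.6% and 38.2% of the 731 members in the 2 early WT libraries and in 47.6% and 77.6% in the early KO libraries. In late cells the shares were 17.8% and 29.1% in WT and 30.9% and 27.4% in KO. Early KO libraries lay above early WT libraries, and late libraries of the genotypes overlapped.

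**Figure D2:**
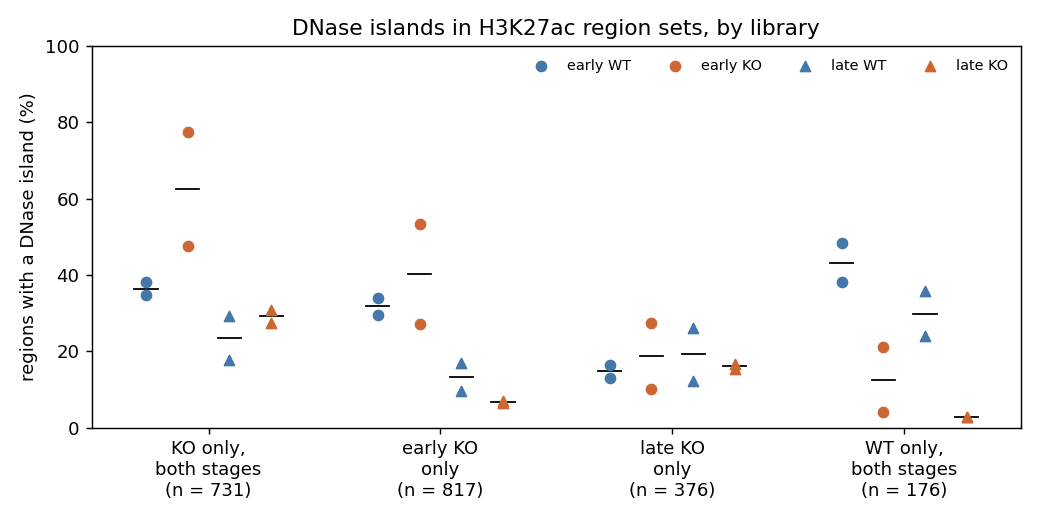
Share of regions (%) with a DNase island in each of 8 libraries, for the KO-only members and for 3 other sets of H3K27ac regions; circles are early and triangles late libraries, blue is WT, orange is KO, and the bar is the mean of 2 libraries. In the members the early KO libraries stand at 47.6% and 77.6%, above 34.6% and 38.2% in early WT, whereas in regions with islands in the 4 WT lists only all KO libraries lie below the WT libraries of the same stage.

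Set against the length of each list, members held more of the open chromatin of every KO library than of any WT library. Of the DNase-covered length of a list, 5.17 and 5.26 bp per kb lay in members in early WT, 11.2 and 13.2 in early KO, 3.44 and 4.18 in late WT, and 9.79 and 9.04 in late KO. By this share the lowest KO library thus stood above the highest WT library. In covered kb the genotypes overlapped across stages, with 239.4 and 351.6 kb in early WT and 352.4 and 652.2 kb in early KO. Late WT held 153.8 and 218.8 kb and late KO 253.8 and 237 kb, so KO stood above WT within each stage. Early KO replicate 2 apart, every KO list covered less length than any WT list. Against the flanks, too, every KO library stood above every WT library. At the midpoint of members the share of regions with a DNase island was 4.93 and 4.53 times that found 10 to 20 kb away in early WT and 9.23 and 10.4 times in early KO. It was 3.12 and 3.77 times in late WT and 7.35 and 6.2 times in late KO. In the flanks themselves early WT libraries had islands over 4.25% and 6.14% of windows and early KO libraries over 3.34% and 5.21%, so the genotypes overlapped. The late flanks did not overlap, with 4.03% and 4.8% in WT and 2.76% and 2.83% in KO, while the late midpoints did, with 12.6% and 18.1% in WT and 20.3% and 17.5% in KO. The larger late ratio in KO thus goes with lower KO flanks.

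**Figure D3:**
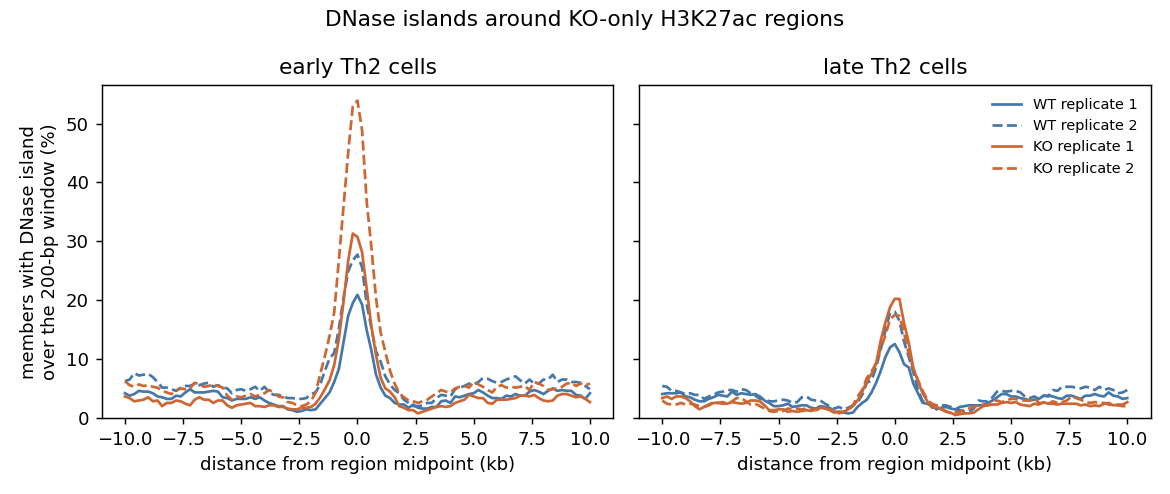
Share of the 731 members (%) with a DNase island over each 200-bp window, by distance from the region's midpoint in kb, in early (left) and late (right) libraries, with WT in blue, KO in orange and a line per replicate. Every library peaks at or next to the midpoint, at 30.8% and 53.9% in early KO, 20.9% and 27.8% in early WT, 20.3% and 17.5% in late KO, and 12.6% and 18.1% in late WT.

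Openness of the members fell into a few patterns. No DNase island was found in any of the 8 libraries in 121 members (16.6%). In 268 (36.7%) islands came from KO lists only and in 30 (4.1%) from WT lists only, where all 35909 regions together gave 4.25% and 10.9%. Regions with H3K27ac in both early KO lists only gave 21.9% and 4.9%, and those in both late KO lists only gave 17.0% and 10.6%. The remaining 312 members (42.7%) had islands in lists of both genotypes, 49 of them in all 8. Islands in all 4 KO and no WT list were found in 39 members, out of 80 such regions in the whole series. Members with DNase in KO lists only had a median H3K27ac percentile of 30.7, against 17.8 for those without DNase and 22.8 for those open in both genotypes.

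A fit across all regions tested each one. DNase coverage was taken as log2(kb + 0.2), regions with an island in at least 2 of 8 DNase libraries were kept (25850 regions, 483 members), and limma was used on all 4 groups with p-values adjusted over all regions tested. Averaged over both stages, DNase rose in KO at 103 members and fell at 1, where 1.57% of all tested regions rose and 5.3% fell. These 103 are 21.3% of the members tested and 25.3% of the 407 regions that rose, and members form 1.87% of the regions tested. The median change was 0.79 on the log2 scale in members and -0.30 over all tested regions. A region empty in all libraries stands at 0.34 by the centring, and without centring the medians were 0.45 and -0.64. With no centring 98 members rose and 19 fell, where 386 of all tested regions rose and 3609 fell. A region closed in WT passes the filter only through its KO libraries, so the share among tested members describes those members alone. In a fit with no filter, over all 731 members, 92 rose at an adjusted p under 0.05. Over all 35909 regions, 354 rose and 707 fell in that fit. Without early WT replicate 1 or without early WT replicate 2, all averaged calls were lost, in members and in all other regions alike. Such fits leave 1 library in a group. With 1 library left out, the median change stayed between 0.47 and 0.91 in members and between -0.38 and -0.24 over all tested regions.

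The members that rose were, in most cases, places with no open chromatin in WT lists. Of the 103, 95 had no DNase island in any WT library, and their median coverage was 0.65 kb in KO. The other 8 went from a median of 0.45 kb in WT to 1.65 kb in KO. Islands were present in 96 and 101 of the 103 in the early KO libraries, in 6 and 6 in early WT, in 55 and 54 in late KO and in 3 and 3 in late WT. Where both WT groups are empty, their spread is set by the centring alone and the p-value rests on the KO libraries and on the spread that limma shares across regions. The 103 had a median H3K27ac percentile of 37.2, and the 380 other members tested stood at 23.7.

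A count that needs no fit was taken from the same DNase lists, so it is not separate evidence. DNase coverage of all 4 KO libraries lay above that of all 4 WT libraries in 40 members, and below it in 2, where the shares over all tested regions were 0.418% and 7.6%. All 40 were among the 103 members that rose, and 39 of them had an island in all 4 KO lists and in no WT list. A region of that kind passes the filter only through its KO libraries, so these shares describe tested regions alone. The 40 members form 37.0% of the 108 tested regions in which all KO libraries lay above all WT libraries. With each library left out in turn the count was 43 to 62, where all regions gave 121 to 207. Apart from the filter, leaving out a library only makes this condition easier to meet, so these counts are no check of it. With lists of equal length it was 60 members of 257 regions, and with the upper 50% of each list 15 of 52.

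The largest rise was at the member on chromosome 7 at 151966201 to 151976800. DNase islands covered 2.0 and 3.6 kb in early KO, then 3.6 and 2.6 kb in late KO, and none was listed in WT (limma adjusted p = 0.012). This was also a member with wide H3K27ac, and it stood 123.0 kb from the nearest region shared by all lists and 62.8 kb from any WT island. On chromosome 5 at 39248201 to 39250800, DNase covered 2.0 and 1.6 kb in early KO, then 1.6 and 1.4 kb in late KO (adjusted p = 0.012), while H3K27ac covered 1.4 and 2.2 kb early and 2.6 and 1.6 kb late. Open and acetylated lengths were thus alike in that region. On chromosome 2 at 92188801 to 92193200, DNase covered 0.6 and 2.6 kb in early KO, then 1.6 and 2.2 kb in late KO (adjusted p = 0.0136). Chromosome 4 held 2 of the first 8. At 124852601 to 124856400 the DNase values were 1.2 and 1.2 kb early and 1.6 and 2.2 kb late, and at 47198601 to 47201200 they were 1.2 and 0.8 kb early and 2.0 and 2.0 kb late (adjusted p = 0.012 for each). The member on chromosome 13 at 53035601 to 53041800, named above for its H3K27ac, had 1.2 and 2.0 kb early and 1.6 and 1.0 kb late (adjusted p = 0.012). On chromosome 17 the member at 50348601 to 50353400 had 0.6 and 1.4 kb early and 2.2 and 1.8 kb late, and that at 45888201 to 45891200 had 1.8 and 1.6 kb early and 1.2 and 1.0 kb late (adjusted p = 0.012 for each). None of these 8 had a DNase island in any of the 4 WT libraries. Their averaged calls were lost without early WT replicate 1 (adjusted p = 0.0677 for each) and without early WT replicate 2 (adjusted p = 0.0823 to 0.0825). The call on chromosome 5 was also lost with the upper 50% of each list (adjusted p = 0.06), and over the alternatives without a block on replicate number the adjusted p of these 8 ran from 0.00241 to 0.0825.

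**Figure D4:**
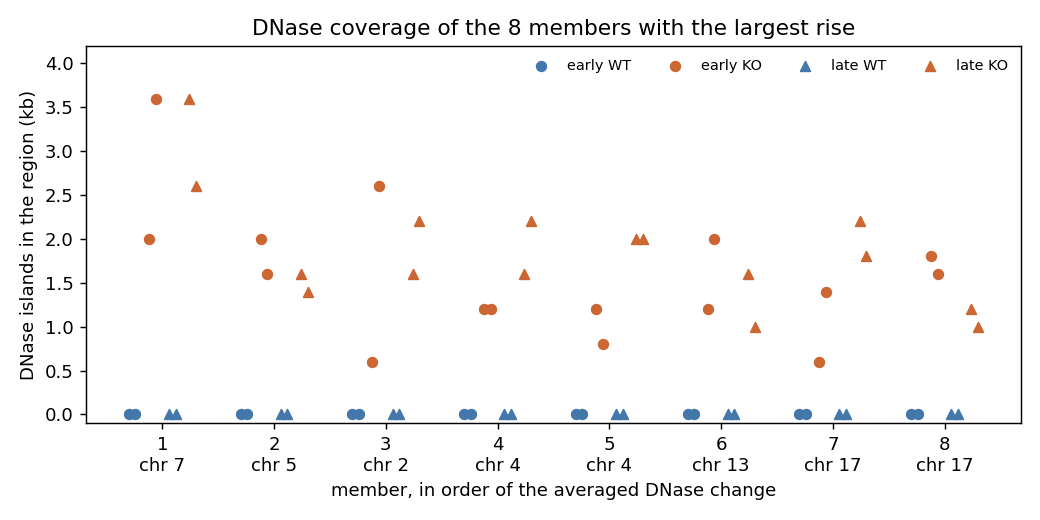
DNase-covered length in kb in each of 8 libraries for the 8 members with the largest rise in KO, numbered in order of the change with their chromosome; circles are early, triangles late, blue is WT and orange is KO, with 1 point per library. All WT points lie at 0, and KO points lie between 0.6 and 3.6 kb.

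Most members with the strongest H3K27ac were also open in KO alone. The 10 members that ranked highest by H3K27ac were picked from the KO lists that the rule used. DNase rose at all 10 in the averaged contrast (limma adjusted p between 0.012 and 0.0479), where 21.3% of the members tested and 1.57% of all tested regions rose. Of the 10, 9 had no DNase island in any WT library and thus passed the filter only through KO libraries. The exception was the member on chromosome 9 at 56396801 to 56402200, with 1.8 and 2.8 kb in early KO against 0.6 and 1.6 kb in early WT, and 0.4 and 1.8 kb in late KO against 0 in both late WT libraries. Its KO libraries lay above the WT libraries within each stage. Its call (adjusted p = 0.0479) was lost under 13 of 16 alternatives, with adjusted p from 0.0133 to 0.151. Among the 10, the members on chromosome 13 at 113328601, chromosome 14 at 48253401 and chromosome 8 at 11527001 had DNase islands in early KO only. Their late change of 0.39 is that of an empty region by the centring. Each of these calls was lost under 5 of 13 or 14 alternatives. The member on chromosome 7 at 106733001 to 106741400, among the 5 members with most H3K27ac, had 1.8 and 3.2 kb in early KO, then 0 and 3.6 kb in late KO. It had no WT island and did not pass (adjusted p = 0.0751). Without late KO replicate 1, the library with no island there, the adjusted p was 0.0166, and over all 15 alternatives it ran from 0.0166 to 0.223.

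By stage, DNase rose at 91 members and fell at 9 in early cells, where 1.35% of all tested regions rose and 2.55% fell. In late cells it rose at 55 and fell at 9, where 0.665% rose and 7.88% fell. It rose at both stages at 32 of the 483 members tested. Over all tested regions that share is not given, and it cannot exceed the 0.665% that rose in late cells. The late split was 47 and 16 without centring and 14 and 0 with quantile normalization, which left 19 and 0 in early cells. Leaving out 1 library ended all calls of early cells in 5 cases (early WT replicate 1 or 2, early KO replicate 1, late KO replicate 1 or 2), and all late calls without late WT replicate 1. With lists of equal length 97 members rose in early and 85 in late cells. For these alternatives no share over all regions is given by stage, so their counts do not set members apart from other regions. The background shifted too. In the averaged contrast equal lists gave 147 rises in members, and 1068 rises and 667 falls over all tested regions. The main fit gave 103 rises in members, and 407 rises and 1369 falls over all tested regions. In plain counts, both early KO libraries lay above both early WT libraries in 177 members and below them in 38, where the shares over all tested regions were 4.98% and 27.4%. In late cells these counts were 87 and 43, where the shares were 2.65% and 41.3%. A DNase island in both KO and neither WT library was found in 134 members (18.3%) early and in 69 (9.44%) late, where the shares over all 35909 regions were 1.41% and 0.526%.

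The DNase change differed between stages at 39 members (limma interaction). It was smaller in late cells at 29 and larger at 10, where 3.14% of all tested regions had a smaller and 1.63% a larger late change. In all 29 both early KO libraries held an island, and in 28 neither late KO library did. In all 10 with a larger late change, neither early KO library and neither late WT library held an island. Both early WT libraries held an island in 8 of these 10, and neither late KO library did in 8. A larger late change thus mostly meant DNase listed in early WT alone, not a rise in late KO. The late KO lists are the shortest. With all DNase lists brought to the same length, the late change was smaller at 35 members and larger at 25. No share over all regions is given there, so these counts do not set members apart from other regions. The member with the highest H3K27ac rank was one of the 29. On chromosome 13 at 113328601 to 113335400 DNase covered 1.2 and 2.0 kb in early KO and 0 in late KO and in all WT libraries (interaction adjusted p = 0.0378). H3K27ac of that member was kept at 6.0 and 5.0 kb in late KO. On chromosome 14 at 48253401 to 48261000 DNase covered 1.2 and 1.2 kb in early KO and nothing elsewhere (interaction adjusted p = 0.0392). With a pseudocount of 0.5 kb, with quantile normalization or with no filter, limma called 0 members in this interaction.

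Some members were open in WT cells although no WT list held H3K27ac there. A DNase island was found in at least 1 WT library in 342 members, and in both early WT libraries along with both early KO libraries in 173. The member that fell in DNase was on chromosome 1 at 107676801 to 107678400, with 1.2 and 1.4 kb in early WT and none listed in the KO or late WT libraries (limma averaged adjusted p = 0.0479). It carried 1.2 and 1.0 kb of H3K27ac in early KO and 1.4 and 0.8 kb in late KO, at percentile 9.49, low in the KO lists. Its call was lost under 9 of 12 alternatives, with adjusted p from 0.00241 to 0.436. The member on chromosome 4 at 107106601 to 107108200 had no DNase island in KO, and 1.6 and 1.2 kb in the early WT and 0 and 1.2 kb in the late WT libraries, and it did not pass (adjusted p = 0.11).

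H3K27ac of members was also compared between late and early KO cells, a contrast the rule did not use, although it kept only regions with the mark at both stages. Few members were called. A limma fit on the 4 KO libraries (28312 regions with an island in at least 2 of them) called 17 members higher and 10 lower in late KO, where 7.1% of all tested regions were higher and 8.67% lower. The median change was -0.04 on the log2 scale in members and 0.05 over all tested regions. Early coverage was the larger in 403 members, late coverage in 278, and 50 were equal. Across members the Spearman correlation of covered length was 0.71 between early KO replicates, 0.72 between late KO replicates and 0.70 between the stage means, as a description over 731 regions that share libraries. With quantile normalization 8 members were higher and 9 lower, and without any single KO library at most 1 member was called in either direction.

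The region that gained most with time was again that on chromosome 4 at 140387001 to 140402400, from 3.2 and 3.2 kb in early KO to 15.4 and 12 kb in late KO (log2 change 2.07, limma adjusted p = 0.00333). Its DNase islands covered 0 and 0.6 kb in early KO, then 1.4 and 1.0 kb in late KO, and none was listed in WT. On chromosome 1 at 91161001 to 91166200, H3K27ac went from 1.8 and 1.4 kb to 5.2 and 4.4 kb (adjusted p = 0.0115). DNase islands there were listed in both genotypes, over 0.6 and 0.8 kb in early WT and 0 and 1.4 kb in late WT. In KO they covered 0.6 and 0.6 kb early and 1.6 and 0 kb late. On chromosome 8 at 72983601 to 72989000 H3K27ac went from 2.0 and 1.6 kb to 4.8 and 5.4 kb (adjusted p = 0.0204). DNase of that member covered 0.8 and 1.2 kb early and 0.6 and 3.2 kb late in KO with none in WT. The member on chromosome 3 at 100707401 to 100713200 went from 2.0 and 2.2 kb to 5.8 and 5.0 kb (adjusted p = 0.00365) and had no DNase island in any library. Late KO values of H3K27ac lay above early KO values in each of these. The fifth, on chromosome 12 at 111674001 to 111677000, went from 1.2 and 1.2 kb to 2.6 and 3.0 kb (adjusted p = 0.0385). DNase there covered 0 and 1.4 kb in early KO and 0 and 0.8 kb in late KO, with none in WT.

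**Figure D5:**
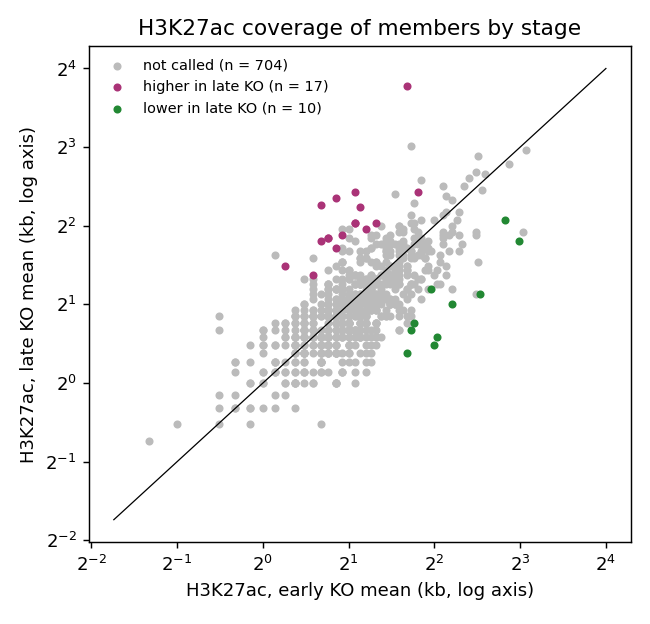
H3K27ac-covered length of each of the 731 members in early KO (x axis, mean of 2 libraries, kb, log axis) and late KO (y axis, likewise), with members called higher in late KO in purple (n = 17), lower in green (n = 10) and the rest in grey; the line marks equal values. Most members lie near the line, and the highest point is the member on chromosome 4 with 3.2 kb early and 13.7 kb late.

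Among members that lost coverage with time, the lowest adjusted p was on chromosome 5 at 111673401 to 111682000, from 7.4 and 8.4 kb in early KO to 3.6 and 3.4 kb in late KO (log2 change -1.08, limma adjusted p = 0.00491). DNase islands there covered 1.0 and 2.4 kb in early KO, then 1.0 and 0.8 kb in late KO, with none in WT, so open chromatin was listed at both stages. On chromosome 12 at 81139201 to 81145200 H3K27ac went from 6.0 and 5.6 kb to 2.8 and 1.6 kb (adjusted p = 0.0335), and on chromosome 19 at 35373601 to 35378200 from 3.8 and 4.4 kb to 1.4 and 1.6 kb (adjusted p = 0.0186). DNase islands at both were listed in WT as well as KO, in early cells only. On chromosome 12 they covered 0.8 and 0.6 kb in early WT and 0.4 and 1.4 kb in early KO. On chromosome 19 they covered 1.0 and 0 kb in early WT and 0 and 2.2 kb in early KO. The H3K27ac falls on chromosome 4 at 59256801 to 59262000 (3.0 and 5.0 kb to 1.6 and 1.2 kb, adjusted p = 0.0496) and chromosome 2 at 68710001 to 68713600 (3.6 and 2.8 kb to 1.4 and 1.2 kb, adjusted p = 0.0428) were near the threshold. Both were lost under 9 of 10 alternatives. DNase islands at both were listed in early KO replicate 2 only, over 0.6 and 1.4 kb.

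DNase values of similar sets of H3K27ac regions are given side by side, with no test between sets. Of 817 regions with islands in both early KO lists only, 342 were tested and DNase rose at 44 (12.9%) and fell at 2 in the averaged contrast. Of 376 regions in both late KO lists only, 118 were tested and it rose at 13 (11.0%) and fell at 2. In the mirror set, the 176 regions with islands in the 4 WT lists only, 83 were tested and 9 fell (10.8%, limma, adjusted p under 0.05). Over all tested regions 1.57% rose and 5.3% fell in the averaged contrast. A region closed in either genotype passes the filter only through the other, so shares of tested regions describe those regions alone. Just outside the rule, the 478 regions with 4 KO lists and 1 WT list gave 24 rises among 325 tested (7.38%), and the 478 with 3 KO lists gave 27 among 246 (11.0%). Islands in all 4 KO and no WT DNase list were found in 39 of the 731 members, in 2 of the 817 early and in 1 of the 376 late KO regions.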

How the data were processed

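The deposited files are lists of enriched islands, 1 per library, from H3K27ac ChIP-seq and DNase-seq. Per the submitters' processing notes, the tools were CASAVA 2.18, Bowtie2 and SICER 1.1 and the genome was mm9. An island is a stretch of enriched 200-bp windows. The authors' score of an island served to order islands of the same list and to drop the weaker ones in some alternatives. Read numbers, controls and redundancy steps are not given in the sources used here, so depth is unknown.

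Regions, members and island-covered kb were computed in Python 3.11.15 (numpy 2.4.6, pandas 2.3.3, matplotlib 3.10.9). Fits used limma 3.58.1 in R 4.3.3 (lmFit, eBayes with a trend) on log2(kb + 0.2), with libraries centred on the median of regions covered in all libraries compared and Benjamini-Hochberg adjusted p under 0.05 as the threshold. The fits were run on simulated data with known changes at regions of middle coverage. That simulation did not imitate regions empty in every WT library, so it does not check calls there. Members, lists and tests were chosen with earlier results of these data known.

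Named members were the 10 of highest mean score percentile, the 5 of most H3K27ac, the 8 largest averaged DNase changes among those called in each direction, the 5 largest changes with time in each direction, the 3 longest runs and the 3 of lowest percentile in a KO list. A fallback for fewer than 5 DNase calls, over both directions, did not apply. Planned gene lists and motif searches were not run, because no mm9 genome or annotation was used here.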

Additional observations from a re-analysis of the deposited data

Results flagged for a closer look

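The DNase change of 4 named members differed between stages by the limma interaction. Late minus early, the change was -3.04 on the log2 scale on chromosome 13 at 113328601 to 113335400 (adjusted p = 0.0378), -2.71 on chromosome 14 at 48253401 to 48261000 (adjusted p = 0.0392) and -2.47 on chromosome 8 at 11527001 to 11533800 (adjusted p = 0.0431). In these 3 members DNase islands were listed in both early KO libraries and in no other, and on chromosome 8 they covered 0.8 and 1.2 kb. On chromosome 1 at 107676801 to 107678400 the change was 3.002 (adjusted p = 0.0378), where islands were listed in both early WT libraries only. These log2 values are set against empty groups and depend on the pseudocount.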

How the results depend on the processing

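Depth is unknown, and the number of libraries limits the fits: with 2 per group, leaving out a library or adding a block removes residual degrees of freedom. The number of KO-only regions was 280 with the upper 50% of each H3K27ac list and 767 to 1045 with a library left out, where a group then needs its other library only. In the averaged DNase contrast 60 members rose with the upper 50% of each list, 0 with a replicate block (of replicate number within stage) and 0 to 71 with a library left out. Members that fell numbered 19 with no centring, 2 with the upper 50%, and 0 with quantile normalization, a pseudocount of 0.5 kb, no filter, equal lists, wider regions or the replicate block, and 0 to 10 with a library left out. In early cells 19 members rose with quantile normalization, 48 with the upper 50%, 0 with the replicate block and 0 to 88 with a library left out, and 0, 3, 0 and 0 to 18 fell (1 with equal lists). In late cells 14 rose with quantile normalization, 35 with no filter, 16 with the upper 50%, 85 with equal lists, 0 with the replicate block and 0 to 65 with a library left out. Late falls numbered 16 with no centring, 0 with quantile normalization, 2 with a pseudocount of 0.5 kb, 5 with no filter, 2 with the upper 50%, 0 with equal lists, 0 with the replicate block and 0 to 17 with a library left out. Members with no overlap between genotypes numbered 15 higher and 0 lower with the upper 50%, 0 lower with equal lists, and 43 to 62 higher and 2 to 9 lower with a library left out. Leaving out a library makes that condition easier to meet. For the interaction, a larger late change was called in 0 members with quantile normalization, the larger pseudocount, no filter or the replicate block, in 4 with the upper 50%, in 25 with equal lists and in 0 to 28 with a library left out. A smaller late change was called in 59 with no centring, 13 with wider regions, 0 with quantile normalization, the larger pseudocount, no filter or the replicate block, and 0 to 7 with a library left out. For H3K27ac with time, 8 members were higher with quantile normalization, 34 with equal lists, 3 with the replicate block and 0 to 1 with a library left out, and 28 were lower with the upper 50%, 35 with equal lists, 3 with the replicate block and 0 to 1 with a library left out. The DNase change on chromosome 2 at 180413201 to 180415200, which was not called (-0.16), turned to 0.49 with quantile normalization, 0.01025 with the larger pseudocount, 0.026 without early WT replicate 2 and 0.47 without early KO replicate 1, and it lay between -0.83 and 0.47 with a library left out. Most counts in this paragraph stand without the share over all regions, so they show only how the calls move with the processing. The cause of these shifts was not tested. Same-numbered libraries did not deviate together (correlations of deviations 0.044, 0.0081 and -0.0041 for early DNase, late DNase and KO H3K27ac), so the numbers were not taken as pairs. With the replicate block the adjusted p of the 8 members with the largest DNase rise was 0.0934 for each.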
